A study of Mus musculus with 4 samples.

Results

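Autophagy and lysosome genes were followed in bone marrow cells that carried or lacked Klf7, which encodes a DNA-binding protein of the Kruppel-like family. The set was a list of 44 genes chosen by name, and 43 of them had a probe set that carried their symbol alone, out of 19938 genes measured. Optn, which encodes the autophagy receptor optineurin, had none and was not analysed here. Each gene was represented by its brightest probe set over the 4 arrays, and 6 of the 43 genes had a second probe set.

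The samples were Lin- c-Kit+ Sca-1+ (KLS) cells, the gate that holds hematopoietic stem cells and early multipotent progenitors. There were 2 Affymetrix arrays of Klf7-/- (knockout) cells and 2 of Klf7+/+ (wild-type) cells, all on the C57Bl/6 strain. Cells of both genotypes came from the marrow of chimeric mice that had been made with fetal liver cells, so all 4 arrays share a transplanted, mixed marrow. The age of the mice, the number of donors or mice behind an array and the deleted part of Klf7 are not given in the sources used here. P-values therefore measure only the spread between these arrays, which may be technical.

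Macroautophagy encloses cytoplasm and organelles in a double-membraned vesicle, the autophagosome, which then fuses with the lysosome, where acid hydrolases break down the contents. A kinase complex around ULK1 starts the process, a lipid kinase complex around PIK3C3 and Beclin 1 marks the site, and ubiquitin-like conjugation attaches LC3 and GABARAP proteins to the growing membrane. In the mouse, loss of Atg7 or of Rb1cc1 from the blood system is known to damage the stem cell compartment, and autophagy clears mitochondria from stem cells and from maturing red cells.

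Array values were log2 intensities, and every difference below is knockout minus wild type on that scale with the standard error (SE, n = 2 per genotype) of limma, a linear model fitted over all 28939 probe sets. Klf7 itself read 6.59 and 6.18 in the knockout arrays, against 5.95 and 6.10 in the wild-type arrays, and without knowing the deleted part this probe set does not check the labels. Xist read 11.76 and 11.58 in the knockout arrays, against 5.24 and 4.80 in the wild-type arrays, and the Y-linked gene Eif2s3y read 2.86 and 2.94 in the knockout arrays, against 6.85 and 8.11 in the wild-type arrays, so transcripts that differ by sex divided the arrays exactly as genotype did. Genotype and these transcripts cannot be told apart here. Immediate early genes, which respond to cell handling, were lower in knockout without overlap in 10 of 15 (66.7%, against 18.6% of all genes), and their part in the values below was not tested. Among markers of the gate, Kit read 10.12 and 9.92 in the knockout arrays, against 9.55 and 9.71 in the wild-type arrays, without overlap. Ly6a, the Sca-1 gene, was not analysed here. Of 10 stem and progenitor markers 8 were measured. Without overlap, 5 of them were higher in knockout (62.5%, against 14.5% of all genes) and 1 lower (12.5%, against 18.6%). Cd34 differed by 0.62 ± 0.15 and Mecom by -0.71 ± 0.25. The part of these marker differences in the values below was not tested.

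None of the 43 genes passed the threshold of an adjusted p of 0.05 in limma. Over all probe sets 1 passed, that of Xist (adjusted p = 0.0454), which is 0.00346% of those tested. At an unadjusted p under 0.05 on the brightest probe sets there was 1 of the 43, Nbr1, a share of 2.33%, against 4.81% of all genes. On its second probe set, nearly as bright as the first, Atg2b was also under 0.05. The smallest adjusted p among the 43 was 0.945.

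The direction of the differences was close to even. Of the 43 genes, 20 were higher and 23 were lower in knockout, with a median difference of -0.036, and the median over all genes was -0.026. The arrays did not overlap between genotypes for 7 genes that were higher in knockout (16.3%, against 14.5% of all genes) and for 7 that were lower (16.3%, against 18.6%). These shares lie near those of all genes. With 2 arrays against 2, an exact permutation test of a value cannot give a two-sided p below 0.333. In the plot of every member by array, each of the 10 roles holds genes that were higher and genes that were lower in knockout. Over the 43 genes, 37 lay above the median level of all genes.

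**Figure D1:**
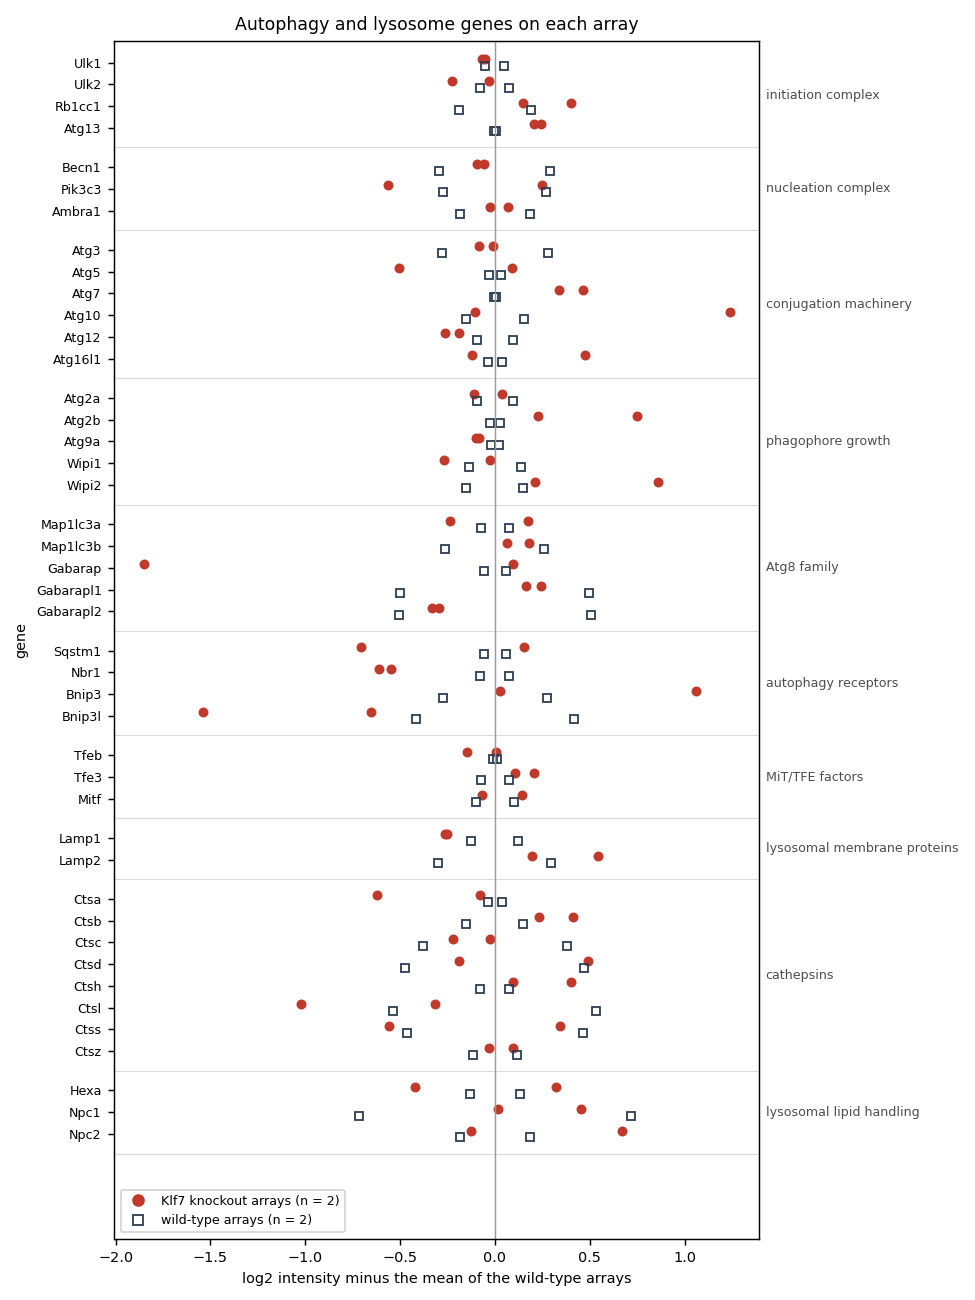
Log2 intensity of the 43 autophagy and lysosome genes on each array, minus the mean of the wild-type arrays, grouped by role; filled circles are the 2 knockout arrays and open squares the 2 wild-type arrays. Nbr1 and Bnip3l lie to the left of their wild-type arrays and Atg7 to the right, while 1 knockout array of Gabarap stands far from the other 3 arrays.

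The MiT/TFE factors Tfeb, Tfe3 and Mitf encode basic helix-loop-helix leucine zipper proteins that bind E-box motifs in promoters of lysosomal and autophagy genes. Tfeb, often called a master regulator of lysosome formation, read 5.35 and 5.51 in the knockout arrays, against 5.49 and 5.51 in the wild-type arrays. The arrays overlapped, and the difference was -0.071 ± 0.16. Tfe3, an X-linked relative, read 5.42 and 5.32 in the knockout arrays, against 5.29 and 5.14 in the wild-type arrays. Its groups did not overlap, but the difference was only 0.16 ± 0.16 (adjusted p = 0.966, 95% interval -0.27 to 0.58). Mitf, better known from pigment and mast cells, differed by 0.039 ± 0.18, and its second probe set, near the dim end of the arrays with readings of 2.72 to 3.45, gave -0.11. The brightest probe sets of all 3 factors read below the median gene level of 5.77, though the brightness of different probe sets does not rank transcripts by abundance.

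Promoter sequences were read to see which members carry the letters that these factors bind. RefSeq promoters (GRCm38.p6) were found for 34 of the 44 genes, 41 promoters in all, and the 250 bases before each start were searched on both strands. The E-box CACGTG occurred in 8 of the 41, a share of 19.5%, against 6.02% of all 32851 promoters. The longer form TCACGTG, which contains the E-box, occurred in 5, a share of 12.2%, against 3.13%. The CACCC box, a short motif bound by Kruppel-like factors, occurred in 20, a share of 48.8%, against 52.0%. A match is a description of letters and not a bound site. The 5 promoters with the longer form are shown because they are the members whose start regions hold the MiT/TFE type of motif, each as the 250 bases before the start, 5′ to 3′ on the gene's strand, with every E-box in capitals. Lamp1, at chr8:13158911-13159160 (plus strand), has 4 E-boxes, whose first bases lie at -61, -45, -28 and -15 from the start. Ctsd lies at chr7:142387828-142388077 (minus strand), with E-boxes at -245 and -98. Atg3 lies at chr16:45158579-45158828 (plus strand), with E-boxes at -94 and -71. Atg7 lies at chr6:114670846-114671095 (plus strand), with an E-box at -132. Ctsa has a pair of starts, and the promoter with an E-box, at -12, lies at chr2:164833523-164833772 (plus strand).
Lamp1: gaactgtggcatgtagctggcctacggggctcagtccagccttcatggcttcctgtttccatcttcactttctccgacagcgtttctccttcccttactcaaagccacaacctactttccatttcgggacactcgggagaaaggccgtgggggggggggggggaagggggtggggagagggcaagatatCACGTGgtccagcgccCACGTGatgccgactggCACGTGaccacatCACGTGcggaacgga
Ctsd: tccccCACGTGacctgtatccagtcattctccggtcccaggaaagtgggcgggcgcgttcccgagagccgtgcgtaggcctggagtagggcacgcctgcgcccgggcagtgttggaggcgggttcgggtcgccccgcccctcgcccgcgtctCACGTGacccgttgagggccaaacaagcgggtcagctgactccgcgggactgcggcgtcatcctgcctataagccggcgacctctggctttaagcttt
Atg3: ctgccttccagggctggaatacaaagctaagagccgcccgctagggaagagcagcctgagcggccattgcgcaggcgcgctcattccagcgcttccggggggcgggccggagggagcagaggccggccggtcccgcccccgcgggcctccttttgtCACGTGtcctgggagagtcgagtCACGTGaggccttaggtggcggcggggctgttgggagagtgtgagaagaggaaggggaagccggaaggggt
Atg7: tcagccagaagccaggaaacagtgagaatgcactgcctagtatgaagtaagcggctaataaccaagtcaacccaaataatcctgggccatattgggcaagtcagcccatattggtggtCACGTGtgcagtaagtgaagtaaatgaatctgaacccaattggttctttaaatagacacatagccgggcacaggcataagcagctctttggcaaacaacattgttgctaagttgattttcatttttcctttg
Ctsa: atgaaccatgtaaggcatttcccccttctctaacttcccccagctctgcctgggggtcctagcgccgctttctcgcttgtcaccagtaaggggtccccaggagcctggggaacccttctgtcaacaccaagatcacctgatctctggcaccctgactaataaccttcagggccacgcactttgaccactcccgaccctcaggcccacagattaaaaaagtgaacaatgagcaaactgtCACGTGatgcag

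These members did not share a direction on the arrays. Lamp1 differed by -0.26 ± 0.17 and Ctsa by -0.35 ± 0.24, both without overlap and lower in knockout. Atg7 differed by 0.40 ± 0.16, without overlap and higher in knockout. Atg3 at -0.046 ± 0.24 and Ctsd at 0.15 ± 0.41 overlapped. With Atg5, Bnip3 and Ctsl, whose promoters hold an E-box but not the longer form, the 8 members had a median difference of -0.13, with 3 higher and 5 lower. The 25 measured members with a promoter and no E-box had a median of -0.036, with 12 higher and 13 lower.

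Among the genes that start autophagy, Rb1cc1 and Atg13 were the higher ones in knockout. Rb1cc1 encodes FIP200, the scaffold of the ULK1 complex, and read 7.27 and 7.53 in the knockout arrays, against 6.94 and 7.32 in the wild-type arrays. Wild-type replicate 2 lay between the knockout arrays, and the difference was 0.28 ± 0.21 (adjusted p = 0.955). Atg13, the regulatory subunit beside it, read 6.91 and 6.87 in the knockout arrays, against 6.66 and 6.67 in the wild-type arrays. The arrays of a genotype lay within 0.038 of each other and the groups did not overlap, yet the difference of 0.23 ± 0.15 had an adjusted p of 0.953. The kinase genes Ulk1 and Ulk2 differed by -0.062 ± 0.15 and -0.13 ± 0.17. Ulk1 did not overlap between the groups, but its difference was smaller than its SE.

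The 3 genes of the nucleation complex all overlapped between genotypes. Pik3c3, the lipid kinase VPS34, had the largest difference, -0.16 ± 0.35, and read 7.15 and 6.34 in the knockout arrays, against 7.17 and 6.63 in the wild-type arrays. Replicate 1 was the higher array in both genotypes, and the spread within a genotype exceeded the difference between them. Becn1, which encodes Beclin 1, differed by -0.077 ± 0.24 and Ambra1, a scaffold that activates the complex, by 0.020 ± 0.20.

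In the conjugation machinery Atg7 stood out by its tight arrays and Atg10 by its wide ones. Atg7, the E1-like enzyme that activates both ATG12 and the LC3 proteins, read 7.06 and 7.18 in the knockout arrays, against 6.72 and 6.73 in the wild-type arrays. Both knockout arrays lay above both wild-type arrays, which were 0.0083 apart. The difference was 0.40 ± 0.16, with a 95% interval of -0.013 to 0.81 and an adjusted p of 0.945. It stayed between 0.34 and 0.46 whichever array was left out. Atg10, the E2-like enzyme for ATG12, read 7.63 and 6.28 in the knockout arrays, against 6.23 and 6.54 in the wild-type arrays. Knockout replicate 1 stood alone, and the difference of 0.57 ± 0.48 (adjusted p = 0.955) was -0.11 without it.

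The other conjugation genes were closer to 0. Atg12, the ubiquitin-like modifier, differed by -0.23 ± 0.17 and did not overlap between the groups, lower in knockout. Atg3, the E2-like enzyme for LC3, differed by -0.046 ± 0.24. Atg5, the partner of ATG12, differed by -0.21 ± 0.25 and Atg16l1, which targets the ATG12 and ATG5 conjugate to membranes, by 0.18 ± 0.25. The last 3 overlapped.

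Of the genes that extend the membrane, Wipi2 and Atg2b were higher in knockout without overlap. Wipi2, which binds the lipid made by VPS34 and recruits ATG16L1, read 5.82 and 6.47 in the knockout arrays, against 5.46 and 5.76 in the wild-type arrays. Genotypes differed by 0.54 ± 0.28 (adjusted p = 0.949, 95% interval -0.20 to 1.27), and by 0.21 without knockout replicate 2. On the brightest probe sets Wipi2 was the 1 gene of the 43 that was higher by at least 0.5 without overlap, a share of 2.33%, against 4.13% of all genes. The second probe sets of Atg2b (1.19) and Gabarapl2 (0.86) were also higher by that much without overlap. Atg2b, a lipid transfer protein gene, read 6.85 and 6.33 in the knockout arrays, against 6.08 and 6.12 in the wild-type arrays. Its second probe set read 6.74 and 7.14 in the knockout arrays, against 5.66 and 5.83 in the wild-type arrays, so all knockout readings lay above all wild-type readings on each. The differences were 0.49 ± 0.23 for the brightest and 1.19 ± 0.21 for the second, with adjusted p of 0.946 and 0.945. Its paralog Atg2a differed by -0.036 ± 0.17, the scramblase gene Atg9a by -0.092 ± 0.15 and Wipi1 by -0.15 ± 0.19.

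The Atg8 family encodes the small proteins that decorate the autophagosome, and all 5 genes overlapped between genotypes. Gabarap had the largest difference of the family and read 9.66 and 7.72 in the knockout arrays, against 9.62 and 9.51 in the wild-type arrays. Knockout replicate 2 alone was low, by 1.95 against the other knockout array. The difference of -0.88 ± 0.66 (adjusted p = 0.955) was 0.096 without that array. Map1lc3b, the LC3 gene most used as an autophagy marker, read 8.28 and 8.17 in the knockout arrays, against 8.37 and 7.85 in the wild-type arrays, and its difference was 0.12 ± 0.23 with a 95% interval of -0.49 to 0.73. Gabarapl1 differed by 0.20 ± 0.36 and Map1lc3a by -0.032 ± 0.21.

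Gabarapl2 gave opposite signs on its 2 probe sets. The brightest read 6.79 and 6.83 in the knockout arrays, against 7.63 and 6.62 in the wild-type arrays, a difference of -0.31 ± 0.37 with wild-type replicate 1 standing above the other 3 arrays. The second read 6.56 and 7.08 in the knockout arrays, against 5.50 and 6.43 in the wild-type arrays, a difference of 0.86 ± 0.38 (adjusted p = 0.945) without overlap. Probe set identifiers on these arrays run along the chromosomes: 96.9% of the 21698 probe sets with a known chromosome shared it with most of their 10 nearest neighbours. The gene Gabarapl2 is on chromosome 8, whereas all 10 neighbours of its brightest probe set are on chromosome 5. Of the 43 probe sets used, 41 lay among neighbours of their gene's own chromosome, and the exceptions were the brightest of Gabarapl2 and of Bnip3l. Which transcripts these 2 probe sets hybridise with, and whether near-identical copies of the Atg8 family genes share signal, was not tested.

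Autophagy receptors carry cargo to the autophagosome, and here 2 of the 4 measured were lower in knockout by at least 0.5 without overlap. The 2, Nbr1 and Bnip3l on their brightest probe sets, are 4.65% of the 43 genes, against 3% of all genes. The second probe set of Bnip3l, among neighbours of its own chromosome, gave -0.47, short of that size. Nbr1, which binds ubiquitinated cargo together with the product of Sqstm1, read 6.82 and 6.76 in the knockout arrays, against 7.45 and 7.29 in the wild-type arrays. Both knockout arrays lay below both wild-type arrays, and the gap within a genotype was at most 0.15. The difference was -0.58 ± 0.16, 1.49-fold lower, with a 95% interval reaching up to -0.16, an unadjusted p of 0.0176 and an adjusted p of 0.945. Leaving out any array gave -0.65 to -0.50.

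Bnip3l encodes NIX, the receptor that removes mitochondria from maturing red cells. Its brightest probe set read 8.25 and 7.37 in the knockout arrays, against 8.49 and 9.32 in the wild-type arrays. The groups did not overlap, but the arrays within a genotype lay 0.89 apart in knockout and 0.83 in wild type. The difference of -1.10 ± 0.43 (adjusted p = 0.945) ran from -1.54 to -0.65 with an array left out. The gene is on chromosome 14, whereas the 10 neighbours of this probe set are on chromosome 12. The second probe set, among neighbours on chromosome 14, read 7.76 and 7.10 in the knockout arrays, against 7.92 and 7.89 in the wild-type arrays. It too was lower in knockout without overlap, by a smaller difference of -0.47 ± 0.26 (adjusted p = 0.950). Of 8 erythroid markers 5 were measured, 3 higher and 2 lower in knockout. Car1, a carbonic anhydrase gene of red cell precursors, read 8.68 and 7.52 in the knockout arrays, against 6.48 and 8.01 in the wild-type arrays. It overlapped and differed by 0.86 ± 0.65, and Slc4a1, the band 3 gene, differed by 0.28 ± 0.16. Car2 differed by 0.041 ± 0.17, Epor by -0.11 ± 0.30 and Klf1 by -0.17 ± 0.22. Their part in the Bnip3l values was not tested.

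The other receptors overlapped. Sqstm1, which encodes p62, read 6.25 and 7.11 in the knockout arrays, against 6.90 and 7.01 in the wild-type arrays, with knockout replicate 1 alone low, and differed by -0.28 ± 0.32. Bnip3, a hypoxia-induced mitophagy receptor related to NIX, read 6.73 and 5.70 in the knockout arrays, against 5.94 and 5.40 in the wild-type arrays. Knockout replicate 1 was the high array on this probe set and on the second, which read 6.90 and 5.50 in the knockout arrays, against 5.77 and 5.21 in the wild-type arrays. Without that array the first gave 0.027 in place of 0.54 ± 0.41. The gene is on chromosome 7, whereas the 10 neighbours of its second probe set are on chromosome 14. The plot of genes with 2 probe sets shows where the readings agree and where they part.

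**Figure D2:**
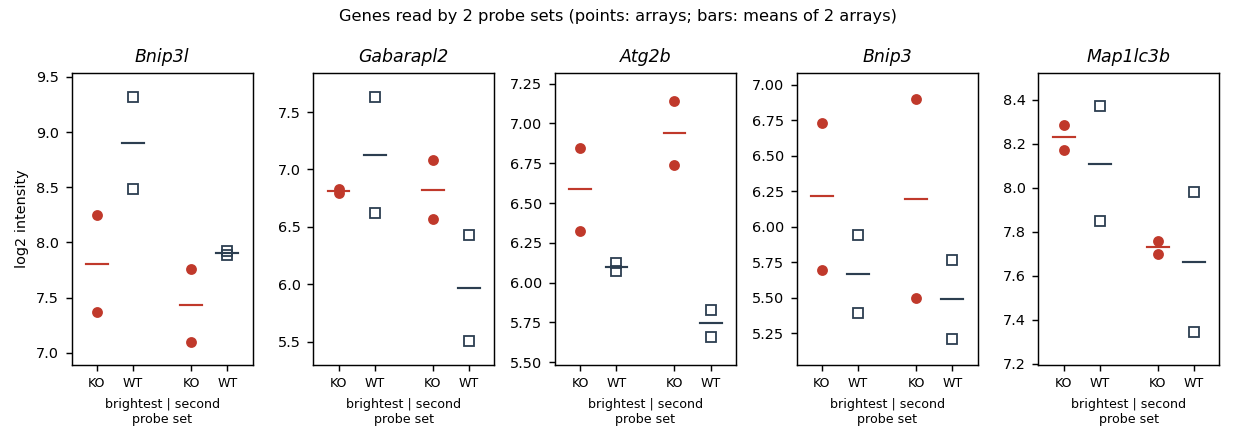
Log2 intensity of 5 genes on their brightest and second probe sets, with knockout (KO, filled circles) left of wild type (WT, open squares) and bars at the means of 2 arrays; the axes do not start at 0. Atg2b and Bnip3l keep their direction on both probe sets, and Gabarapl2 is lower in knockout on the first and higher on the second. The brightest probe sets of Bnip3l and Gabarapl2 and the second ones of Bnip3 and Map1lc3b lie among neighbours of another chromosome.

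The lysosomal membrane genes pointed in opposite directions. Lamp1, which encodes a heavily glycosylated membrane protein, read 7.20 and 7.21 in the knockout arrays, against 7.34 and 7.58 in the wild-type arrays. It did not overlap, and differed by -0.26 ± 0.17 (adjusted p = 0.953). Lamp2, which is X-linked and whose product also serves chaperone-mediated autophagy, read 8.23 and 8.58 in the knockout arrays, against 7.74 and 8.33 in the wild-type arrays. The groups overlapped, and the difference was 0.37 ± 0.27 (adjusted p = 0.954).

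The cathepsins, lysosomal proteases, divided into 4 higher and 4 lower in knockout, with a median of -0.037. Ctsl, a cysteine protease gene, had the largest difference and read 7.45 and 6.74 in the knockout arrays, against 7.23 and 8.30 in the wild-type arrays. Wild-type replicate 2 was the high array, and without it the difference of -0.67 ± 0.45 (adjusted p = 0.953) was -0.14. Ctsb, the cathepsin B gene, read 7.003 and 6.83 in the knockout arrays, against 6.74 and 6.44 in the wild-type arrays and was higher in knockout without overlap, by 0.32 ± 0.19. Ctsh, an aminopeptidase, was also higher without overlap, by 0.25 ± 0.19. Ctsa, which protects other lysosomal enzymes, was lower without overlap, with a difference of -0.35 ± 0.24, or -0.076 without knockout replicate 2.

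Ctsd and Ctss varied more within a genotype than between genotypes. Ctsd, the main aspartic protease of the lysosome, read 8.41 and 7.73 in the knockout arrays, against 8.39 and 7.45 in the wild-type arrays. Ctss, a protease of antigen-presenting cells, read 8.58 and 7.68 in the knockout arrays, against 8.70 and 7.77 in the wild-type arrays. In each case replicate 1 of a genotype was well above replicate 2, while the genotype means differed by 0.15 ± 0.41 and -0.11 ± 0.45. Ctsg, the granule protease gene of early myeloid cells, also had both replicate 1 arrays above both replicate 2 arrays and read 8.25 and 7.41 in the knockout arrays, against 8.61 and 6.97 in the wild-type arrays. Ctsc, which activates granule proteases, differed by -0.12 ± 0.30 and Ctsz by 0.031 ± 0.17.

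Cathepsins are abundant in myeloid cells, so myeloid markers were read beside them. All 12 granulocyte markers were measured, and their summed intensity was 4440 and 2366 in the knockout arrays, against 3649 and 3160 in the wild-type arrays. Of 12 monocyte and macrophage markers 11 were measured, and theirs was 765 and 825 in the knockout arrays, against 878 and 922 in the wild-type arrays. The summed intensity of the 8 cathepsins was 1384 and 985 in the knockout arrays, against 1365 and 1197 in the wild-type arrays. By these sums, knockout replicate 2 was lowest for the cathepsins and the granulocyte markers, and the macrophage markers were lower in both knockout arrays. A sum follows its brightest genes. The mean log2 of the macrophage markers was 5.73 and 5.85 in the knockout arrays, against 5.82 and 5.96 in the wild-type arrays, and overlapped. Without overlap, 2 of the 11 were lower (18.2%, against 18.6% of all genes) and 1 was higher (9.09%, against 14.5%). Of the 12 granulocyte markers, 2 were lower without overlap (16.7%, against 18.6%) and 0 higher (0%, against 14.5%). These 2 were Retnlg at -1.31 ± 0.18 (adjusted p = 0.814 in limma) and Elane at -1.07 ± 0.40 (adjusted p = 0.945). By direction alone, 6 granulocyte markers were higher and 6 lower. Over the 4 arrays, 8 of the 12 granulocyte markers and 4 of the 11 monocyte and macrophage markers lay above the median gene level. S100a9, a calcium-binding protein gene of neutrophils, read 10.40 and 8.02 in the knockout arrays, against 8.80 and 10.09 in the wild-type arrays, and Lyz2, the lysozyme gene of myeloid cells, 7.60 and 6.60 in the knockout arrays, against 7.77 and 7.505 in the wild-type arrays. Dimmer were Adgre1, a macrophage surface receptor gene, at 3.88 and 4.41 in the knockout arrays, against 4.203 and 4.24 in the wild-type arrays, and Ly6g, a neutrophil surface protein gene, at 4.48 and 4.36 in the knockout arrays, against 4.36 and 4.64 in the wild-type arrays, where 5% of values lie under 3.13. The part of these cells in the cathepsin values was not tested, and in sorted bulk RNA fewer cells of a type and less RNA per cell cannot be told apart.

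The genes of lysosomal lipid handling all overlapped. Npc2, a soluble cholesterol carrier, had the largest difference, 0.27 ± 0.33, and read 8.73 and 7.93 in the knockout arrays, against 7.88 and 8.25 in the wild-type arrays. Knockout replicate 1 was the high array, and without it the difference was -0.13. Npc1, the membrane cholesterol exporter that receives cholesterol from NPC2, read 7.05 and 7.49 in the knockout arrays, against 7.75 and 6.32 in the wild-type arrays. The wild-type arrays were 1.43 apart and enclosed both knockout arrays, and the difference was 0.23 ± 0.51. Hexa, a subunit gene of beta-hexosaminidase, differed by -0.049 ± 0.30.

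Intervals were wide for most members. The median SE over the 43 genes was 0.24, against 0.20 over all genes. In 6 genes, Atg10, Gabarap, Gabarapl2, Bnip3, Ctsl and Npc1, arrays of a genotype lay at least 1 apart, a share of 14% against 7.38% of all genes. Apart from Nbr1, every member's 95% interval included 0 on its brightest probe set. The second probe set of Atg2b was nearly as bright as the first but was not used for these counts. It differed by 1.19 ± 0.21, and its 95% interval lay above 0. In the plot of differences, Gabarap has the widest interval, -2.61 to 0.86, and Atg9a among the narrowest, -0.49 to 0.31.

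**Figure D3:**
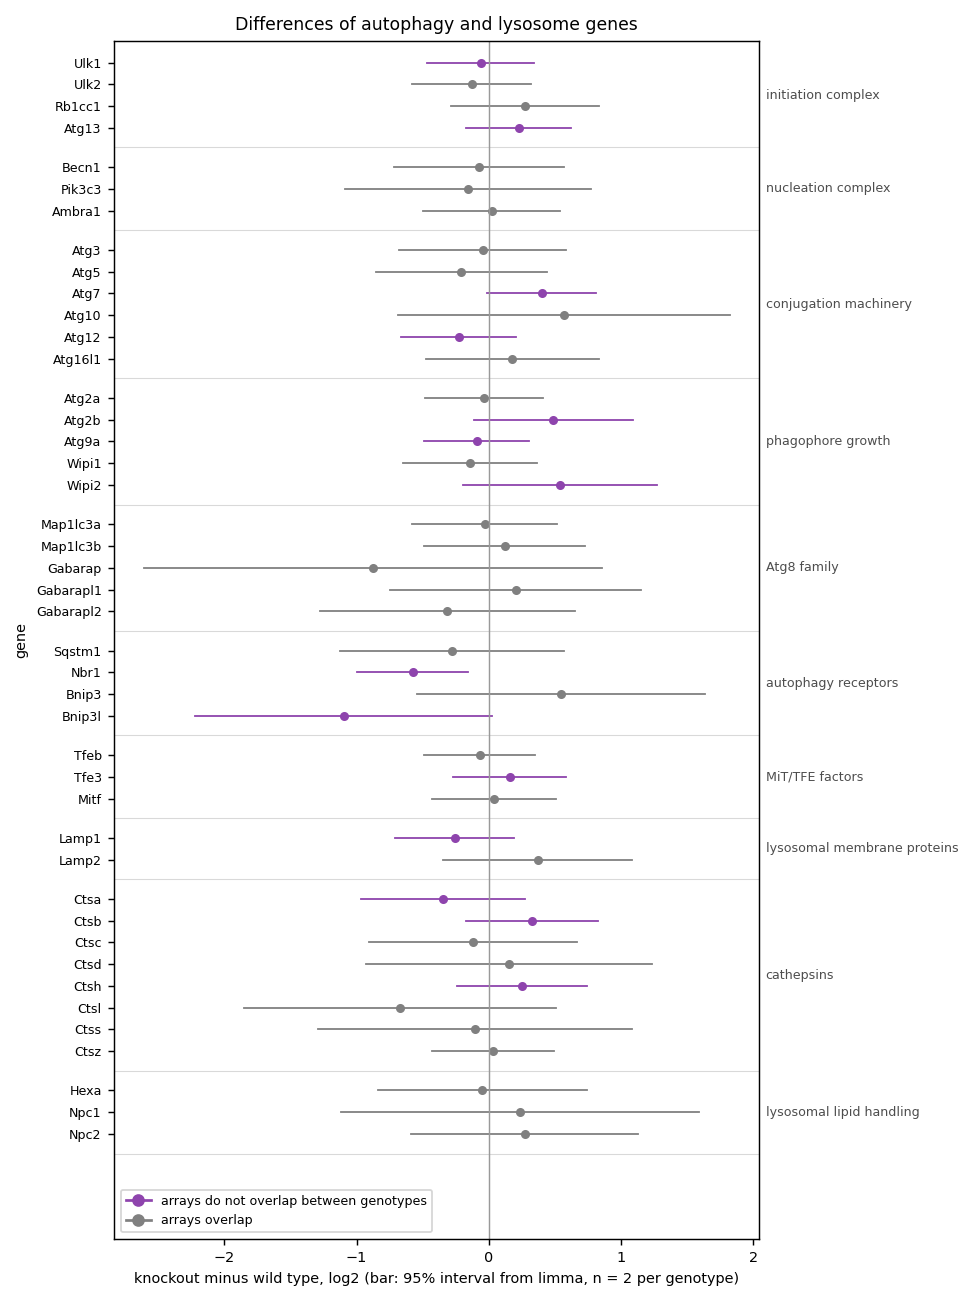
Knockout minus wild-type difference (log2) of each member with its 95% interval from limma (n = 2 arrays per genotype), grouped by role; purple marks genes whose arrays do not overlap between genotypes. On the brightest probe sets shown, the interval of Nbr1 lies below 0 and all others cross it.

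**Figure D4:**
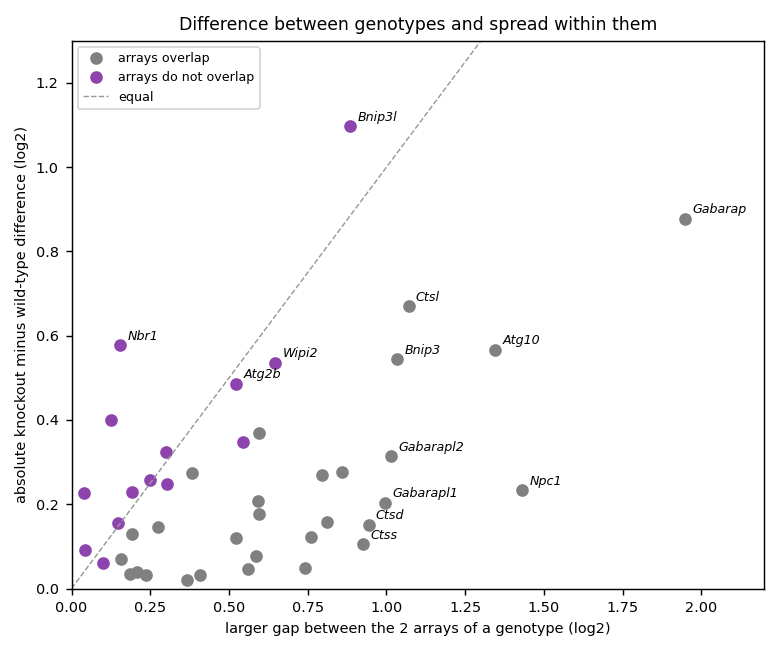
Absolute knockout minus wild-type difference of each member against the larger gap between the 2 arrays of a genotype (both log2), with the line of equality. Nbr1 and Bnip3l are among the genes above the line, whereas Gabarap, Npc1, Atg10, Ctsl and Bnip3 lie far below it.

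Further genes of the pathway were read in 5 lists of 129 genes, of which 119 were measured. None passed the threshold in limma. At an unadjusted p under 0.05 there were 8, or 6.72%, against 4.81% of all genes. Of the 119, 61 were higher and 58 lower in knockout. Without overlap, 22 were higher (18.5%, against 14.5% of all genes) and 19 lower (16%, against 18.6%), and the median difference was 0.017. By list, the medians ran from -0.031 for the V-ATPase to 0.12 for the other autophagy genes, against -0.026 for all genes.

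Among 27 other autophagy genes, 10 were higher in knockout without overlap (37%, against 14.5% of all genes) and 4 lower (14.8%, against 18.6%). Wdr45b, a relative of the WIPI genes, read 5.74 and 6.00 in the knockout arrays, against 6.85 and 6.44 in the wild-type arrays, a difference of -0.78 ± 0.22 (adjusted p = 0.945). Stx17, the syntaxin that drives fusion of autophagosomes with lysosomes, read 7.01 and 6.93 in the knockout arrays, against 6.35 and 6.40 in the wild-type arrays, a difference of 0.59 ± 0.15 (adjusted p = 0.945). The arrays of Stx17 were tight in both genotypes. For 26 genes of nutrient sensing at the lysosome the median was 0.036, with 5 higher and 2 lower without overlap (19.2% and 7.69%, against 14.5% and 18.6% of all genes). Rraga, a Rag GTPase that brings mTORC1 to the lysosome, differed by 0.60 ± 0.30 and Fnip2, a partner of folliculin, by 0.47 ± 0.30.

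The V-ATPase, the proton pump that acidifies the lysosome, held the largest differences of the 5 lists. Of 15 subunit and accessory genes, 4 were higher and 4 lower without overlap, 26.7% each, against 14.5% and 18.6% of all genes. An unadjusted p under 0.05 was reached by 3 of them, 20% against 4.81%. Atp6v1b2, the B subunit expressed in most tissues, read 7.34 and 7.25 in the knockout arrays, against 6.06 and 5.43 in the wild-type arrays. Both knockout arrays lay more than 1 above both wild-type arrays, and the difference of 1.55 ± 0.26, 2.93-fold higher, had an adjusted p of 0.945. Atp6ap2, the X-linked accessory subunit also called the prorenin receptor, read 6.58 and 6.09 in the knockout arrays, against 7.08 and 7.55 in the wild-type arrays, a difference of -0.98 ± 0.27 (adjusted p = 0.945).

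Lysosomal hydrolases and membrane genes outside the 43 gave medians close to 0. For 30 other hydrolases the median was 0.017, with 2 higher and 5 lower without overlap (6.67% and 16.7%, against 14.5% and 18.6% of all genes). Gla, the X-linked alpha-galactosidase gene, read 7.25 and 7.32 in the knockout arrays, against 7.81 and 8.21 in the wild-type arrays, a difference of -0.73 ± 0.20. Hgsnat, a heparan sulfate acetyltransferase gene that was listed with the hydrolases, differed by -0.46 ± 0.26. For 21 other membrane and sorting genes the median was -0.019, with 1 higher and 4 lower without overlap (4.76% and 19%, against 14.5% and 18.6% of all genes). Psap, the precursor of the saposins that help hydrolases reach lipids, read 7.79 and 7.69 in the knockout arrays, against 8.58 and 8.42 in the wild-type arrays, a difference of -0.76 ± 0.16 (adjusted p = 0.945). Its groups lay apart by more than their own spread. Scarb2, the receptor that delivers glucocerebrosidase, differed by 0.69 ± 0.35.

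**Figure D5:**
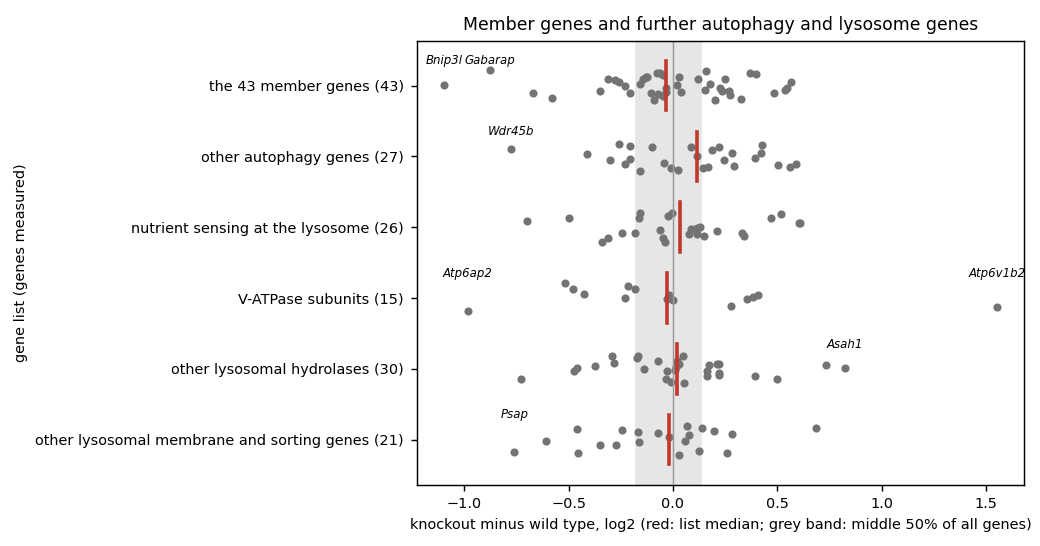
Knockout minus wild-type differences (log2) of the 43 members and of the 5 further lists, 1 point per gene, with list medians in red and the band between the quartiles of all genes in grey. All medians lie between -0.036 and 0.12, and Atp6v1b2 stands apart at 1.55.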

How the data were processed

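Total RNA of KLS cells sorted from mouse bone marrow was amplified (NuGen Ovation) and hybridised to Affymetrix arrays, per the labels' protocols. The authors deposited a table of intensity values per probe set and array, and the submitters' processing notes name RMA and Affymetrix Expression Console without settings. The intensities reached 19067.2, so they were read as linear and log2 was taken here. Array medians lay between 50.5 and 51.8, and no further normalization was applied. The 6615 probe sets before the first annotated one were assumed to be controls and left out, and 28939 were tested. Of these, 21789 had 1 symbol, 1621 several and 5529 none in the platform annotation. Detection above background was not used here, and the number of arrays limits the precision.

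Genotype was the single term of a model fitted to every probe set (limma 3.58.1 under R 4.3.3, moderated by eBayes). Tests were two-sided with 2 residual degrees of freedom, and p-values were adjusted by Benjamini-Hochberg over the whole table. Adjusted p-values are from this fit unless another setting is named. The fit was also run on simulated data with independent noise and variances shuffled over probe sets, and its outcome is not reported here. The members and lists were chosen with earlier results of these data known. Values are given in full for members without overlap and at least 0.5 apart, for the largest difference in each role, and for members with arrays of a genotype at least 1 apart. Of each further list, up to 2 genes above the median level and without overlap were named by size. Other genes given in full, such as Atg7, Atg13, Atg2b, Ctsd and Ctss, were chosen after their values were seen. The normalization was varied with cyclic loess and with a further quantile step. Low values were treated with a filter on dim probe sets or an offset of 32. The fit was varied with an intensity trend, with replicate number as the blocking factor and by dropping 1 array at a time. Genes were also summarised as the mean over their probe sets, and the leading probe sets were put back. Use of the probe set lying among its own chromosome was chosen after seeing the data.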

Additional observations from a re-analysis of the deposited data

How the results depend on the processing

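No member passed the threshold under any of the 13 alternatives, where the smallest adjusted p of a member was 0.664, without wild-type replicate 1. Over all probe sets the count of 1 dropped to 0 in 5 settings: a further quantile normalization (0), the offset of 32 (0), the intensity trend (0), the replicate block (0) and the leading probe sets kept (0). It was 0 to 0 when any array was dropped, a fit in which the remaining array borrows the spread of the other genotype. The labels give no pairing by replicate number, and the 2 pairs' deviations had a correlation of 0.0288. Non-overlapping members numbered 13 to 16 higher and 12 to 18 lower with 1 array dropped, since a single array cannot lie on both sides of the others. These are 30.2% to 37.2% and 27.9% to 41.9%, against 27.2% to 31.5% and 32.6% to 38.8% of all genes. In the other settings non-overlapping members numbered 5 to 8 higher (13.2% to 18.6%, against 14.5% to 17.8% of all genes). Lower ones numbered 6 to 7 (14% to 18.4%, against 15% to 18.6%). The count of 5 is out of the 38 members left by the filter on dim probe sets. The members' median ran from -0.11 to 0.084 with an array left out. Of 554 member values under alternatives, 517 kept their direction and 37 turned. The cause was not tested. A further quantile normalization gave Ambra1 -0.000675 and Ctsz -0.00699. Gabarapl2 was 0.27 and Mitf -0.036 with the mean of all probe sets, and Gabarapl2 was 0.86 with the probe set of its own chromosome. With an array left out, these small or single-array differences turned: Ambra1 from -0.16 to 0.20, Atg10 from -0.11 to 1.24, Atg16l1 from -0.12 to 0.47, Atg2a from -0.13 to 0.058, Atg3 from -0.33 to 0.23 and Atg5 from -0.50 to 0.088. The same holds for Becn1 from -0.37 to 0.22, Ctsc from -0.50 to 0.26, Ctsd from -0.32 to 0.62, Ctss from -0.57 to 0.36, Ctsz from -0.086 to 0.15 and Gabarap from -1.85 to 0.096. Likewise ran Gabarapl1 from -0.29 to 0.70, Gabarapl2 from -0.82 to 0.19, Hexa from -0.42 to 0.32, Map1lc3a from -0.24 to 0.17, Map1lc3b from -0.14 to 0.38 and Mitf from -0.065 to 0.14. So did Npc1 from -0.48 to 0.95, Npc2 from -0.13 to 0.67, Pik3c3 from -0.56 to 0.25, Sqstm1 from -0.71 to 0.15 and Tfeb from -0.15 to 0.0082. The other 20 members kept their direction with any array left out. They include the 14 members without overlap, Nbr1, Bnip3l, Atg7, Atg13, Atg2b, Wipi2 and Lamp1 among them. Where groups do not overlap, dropping an array cannot turn the direction, so for these 14 it is no further check. The filter on dim probe sets left 38 of the 43 members, and background readings were not analysed here.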
